A study of Ovis aries with 54 samples.

Results

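Lung tissue that had received saline was compared with lung tissue of control sheep, in a series that models chronic obstructive pulmonary disease in a large animal. The comparison took in 11 of the 18 tissue pieces of the series and 33 of its 54 libraries, chosen by the treatment label and, for the code-matched check, by a letter code in the sample titles. The 7 Saline pieces came from 7 sheep, and in each of these another lobe was exposed to PE/LPS, porcine elastase with lipopolysaccharide, so every Saline piece shared its animal with an exposed lobe. The 4 Control pieces came from 4 other sheep, so no piece of one group was paired with a piece of the other. All 7 Saline pieces carried the code RA, and of the Control pieces those of sheep 7 and 9 were coded RA and those of sheep 10 and 18 LC. In sheep 9 alone of the 11 pieces, the titles held a 4 after the code. The sources used here do not give the meaning of the codes or of that 4. They also do not give the time between exposure and sampling, or the breed, sex and age of the sheep. The 7 PE/LPS pieces were left out of the comparison.

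Elastase cuts elastin, the protein that lets the lung recoil, and lipopolysaccharide is a bacterial cell wall component that draws in white blood cells. Saline carries neither, so a saline lobe serves as the within-animal control of an exposed lobe, and comparing it with other sheep asks how far that control itself differs from the lung of animals with no exposed lobe. The alveoli are lined by flat type 1 cells and by cuboidal type 2 cells, which make surfactant, a film of lipid and protein stored in lamellar bodies that keeps the air spaces open. RNA was counted from whole tissue, where fewer cells of a type and less RNA per cell cannot be told apart.

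Each piece was sequenced as 3 libraries, whose counts were summed. Piece totals were 12760040 to 34762189 counts in Saline tissue and 23106036 to 41946705 in Control tissue. Levels are given as CPM, a gene's count per 1000000 counts of its piece's scaled total, and folds as log2 of Saline over Control with a standard error (SE). SFTPC, the surfactant protein C gene that only type 2 cells express strongly, was at 17461 CPM or more in all 11 pieces. A single piece stood apart in each group. Saline sheep 14 had the lowest summed level of 16 type 1 genes, 1471 CPM against 3473 to 6021 CPM in the other Saline pieces and 5167 to 5908 CPM in Control pieces. It also had the highest sum over 12 cartilage genes, 89.3 CPM, where the other Saline pieces had 16.3 to 25 CPM and the Control pieces 9.23 to 51.9 CPM. Control sheep 9 had the highest sum over 53 cytosolic ribosomal protein genes, its 100 most abundant genes took 39.3% of its counts, against 22.7% to 33% in Saline pieces, and its scaling factor was 0.732, against 0.879 to 1.2 in Saline pieces. For gene lists, medians are given with the values reached when pieces were left out one at a time.

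Between Saline and Control tissue 0 of 18289 genes (0%) passed an adjusted p of 0.05 in the quasi-likelihood test of edgeR, adjusted by Benjamini-Hochberg, and the smallest adjusted p was 0.939. At an unadjusted p below 0.05, 304 genes (1.66%) were higher and 594 (3.25%) lower in Saline tissue, 898 in all, where 914 are expected by chance. The lower count was 217 without Control sheep 9, 371 without Saline sheep 15 and 1039 without Control sheep 18, and the higher count was 547 without Control sheep 18. Of the genes at that level 66.1% were on the lower side, and 51.2% once Control sheep 9 was left out. For 31 genes (0.17%) every Saline piece lay above every Control piece, and for 38 (0.208%) every Saline piece lay below. DESeq2 called 6 genes (0.0328%), and limma voom called 0. The median gene had an SE of 0.35, a 95% interval of ± 0.68 by a normal quantile, so a difference within it could not be told from 0 for a typical gene, before any adjustment over genes. The SEs and p-values given below come from edgeR unless DESeq2 is named. In the comparison of all 7 Saline with all 4 Control pieces, no gene had an edgeR adjusted p below 0.939. The edgeR SE was derived as the absolute log2 fold change over the square root of the test's F statistic, so it is approximate.

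The surfactant and lamellar body genes leaned to the higher side in Saline tissue, though none passed the adjusted test. Of 12 genes listed 11 were in the table and 10 passed the filter on low counts. All 10 members tested had a positive log2 fold change, with a median of 0.60 where the median over all genes tested was 0.01. Against the RA Control pieces alone the median was 0.53 and against the LC pieces alone 0.85, again with 10 of 10 positive. It was 0.67 without Control sheep 9, 0.62 without Saline sheep 14 and 0.43 to 0.78 over all pieces left out in turn. Of the 10, 5 were at an unadjusted p below 0.05 on the higher side, where 1.66% of all genes were, and the groups of 3 did not overlap, with the Saline pieces above, which held for 0.17% of all genes. All 10 are described, a choice made after their values were seen.

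SLC34A2, the sodium-phosphate cotransporter of the type 2 cell surface, was measured at 543, 707, 707, 715, 780, 869 and 584 CPM in Saline sheep 1, 2, 8, 11, 14, 15 and 16. In Control sheep 7, 9, 10 and 18 it was at 381, 315, 274 and 501 CPM. The lowest Saline piece lay above the highest Control piece, and the log2 fold change was 0.93 (SE 0.26, edgeR adjusted p = 0.939). LAMP3, a lamellar body membrane protein that mature dendritic cells also express, ran from 413 to 597 CPM with a median of 451 in Saline pieces, against 316, 254, 251 and 400 CPM in Control sheep 7, 9, 10 and 18. Its groups did not overlap either (0.66, SE 0.24).

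ABCA3, the transporter that loads phospholipid into lamellar bodies, ran from 104 to 337 CPM with a median of 134 in Saline pieces, and stood at 100, 93.8, 80 and 93.2 CPM in Control pieces. The groups did not overlap, but Saline sheep 14 held the highest value by far, and the log2 fold change of 0.79 (SE 0.31) was 0.50 without it. SFTPB, a small hydrophobic surfactant protein needed for the film to spread, averaged 3042 ± 980 CPM (SD, n = 7) in Saline and 1487 ± 635 CPM (SD, n = 4) in Control pieces. Its fold change was the largest of the list at 1.03 (SE 0.38), and 5 of 7 Saline pieces exceeded every Control piece. SFTPD, a collectin that binds microbes, averaged 724 ± 147 CPM in Saline and 440 ± 138 CPM in Control pieces (0.72, SE 0.29), with 6 of 7 Saline pieces above every Control piece.

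The remaining 5 members had smaller or less certain differences. NAPSA, an aspartic protease that processes surfactant protein B, gave 0.54 (SE 0.31) on the log2 scale. LPCAT1, which remodels surfactant lipid, had 0.54 (SE 0.34), and the collectin SFTPA1 had 0.47 (SE 0.50). SFTPC had 0.38 (SE 0.48), with 0.03 against RA and 0.85 against LC Control pieces, and the cysteine protease CTSH had 0.31 (SE 0.24). Without Control sheep 10 the values were 0.34 for NAPSA, 0.33 for LPCAT1, 0.29 for SFTPA1 and 0.19 for SFTPC. SFTPC and SFTPA1 varied widely within Saline tissue, from 17461 to 84516 CPM and from 1989 to 12341 CPM, and both overlapped the Control pieces.

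**Figure D1:**
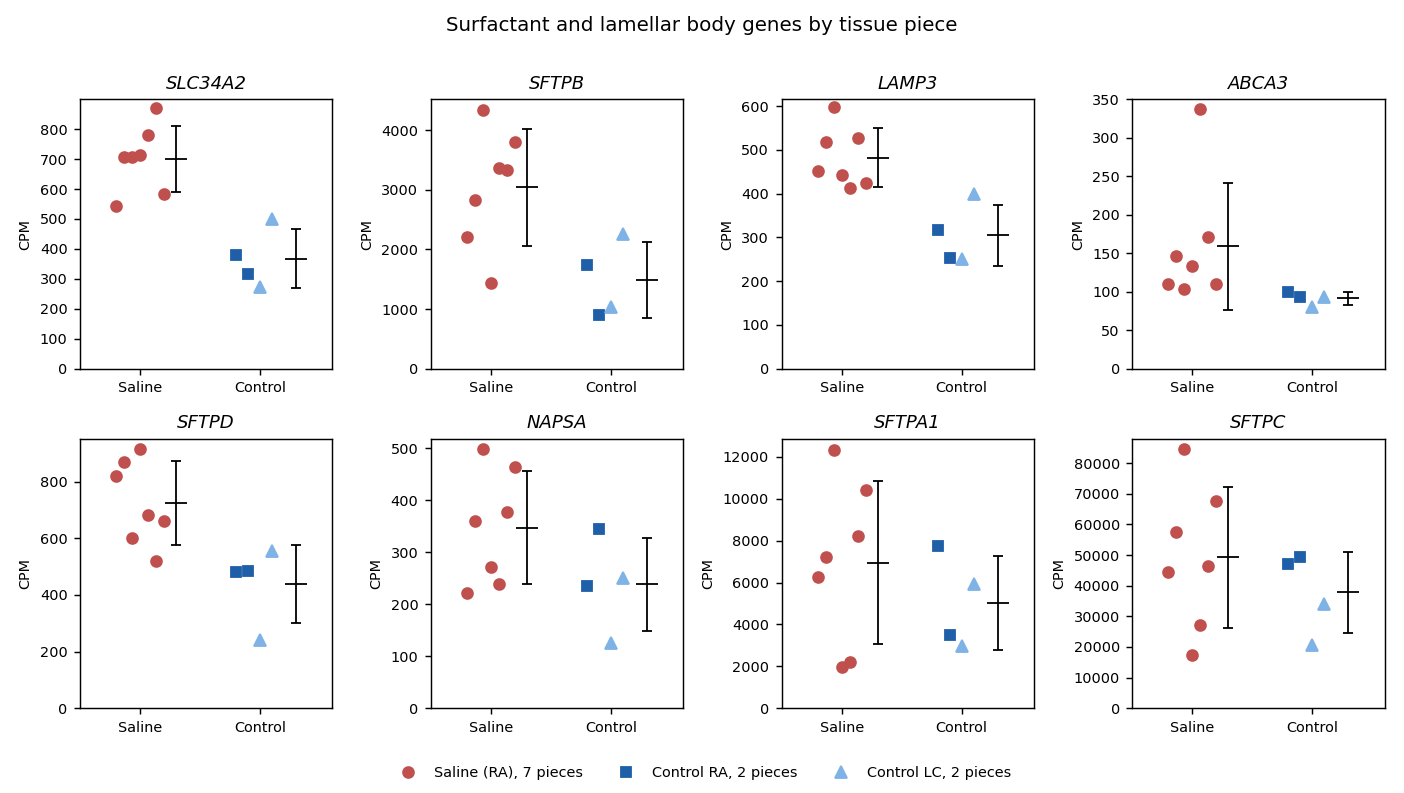
CPM of 8 surfactant and lamellar body genes in each tissue piece, on axes that start at 0; circles are the 7 Saline pieces, squares the RA and triangles the LC Control pieces, and the bars are mean ± SD of each group. SLC34A2, LAMP3 and ABCA3 do not overlap between groups, while SFTPC and SFTPA1 spread over the whole Control range.

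Other genes of the alveolar lining did not share a direction. Of 14 further type 2 markers tested, 8 had a positive and 6 a negative fold change, with a median of 0.13 that ran from 0.04 without Control sheep 10 to 0.29 without Control sheep 18. The fold changes ran from -1.25 to 1.32. At an unadjusted p below 0.05, 4 were higher and 1 lower, where 1.66% and 3.25% of all genes were. The sum over the 15 in the table had a median of 1321 CPM in Saline and 1735 CPM in Control pieces. LGI3, FOXA2 and LRRK2, named next, were all on the higher side. LGI3, a secreted leucine-rich repeat protein, averaged 18.3 ± 8.57 CPM in Saline and 9.06 ± 3.98 CPM in Control pieces (1.01, SE 0.39). FOXA2, a transcription factor of lung epithelium, averaged 46.2 ± 10 CPM in Saline and 29.7 ± 8.95 CPM in Control pieces (0.64, SE 0.25). LRRK2, a kinase linked to lamellar body formation in rodents, had 0.95 (SE 0.37), and 0.56 without Saline sheep 14, which was at 469 CPM. Of 16 type 1 genes, 3 were positive and 13 negative, with a median of -0.14. Without Saline sheep 14, the piece with the lowest type 1 sum, they were split 8 to 8 with a median of 0.00, and without Control sheep 9 the median was -0.20. HOPX, a homeobox protein of type 1 cells, gave -1.25 (SE 0.48), but Control sheep 9 alone was at 2838 CPM, and without it the value was -0.60.

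Lipid synthesis feeds surfactant with cholesterol and phospholipid. Of 21 cholesterol synthesis genes tested, 15 had a positive and 6 a negative fold change, with a median of 0.30. The median was 0.18 without Control sheep 9, with 16 positive, and 0.18 against LC Control pieces. SQLE, an early enzyme of sterol ring formation, averaged 42.6 ± 9.31 CPM in Saline and 28.8 ± 2.78 CPM in Control pieces (0.56, SE 0.22). SREBF2, the transcription factor that drives the pathway, averaged 36.9 ± 6.12 CPM in Saline and 25.1 ± 6.9 CPM in Control pieces (0.56, SE 0.23). For each of the 2 genes 6 of 7 Saline pieces lay above every Control piece. ACAT2, which starts the pathway, had -0.59 (SE 0.34), and -0.19 without Control sheep 9, which was at 32.1 CPM where the other Control pieces were at 12.9 to 14.9 CPM. Of 21 fatty acid and phospholipid genes 15 were positive, with a median of 0.07, and 11 were positive without Control sheep 9, with a median of 0.00. ACSS2, which makes acetyl-CoA from acetate, had 0.81 (SE 0.33), and 0.52 without Saline sheep 14.

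**Figure D2:**
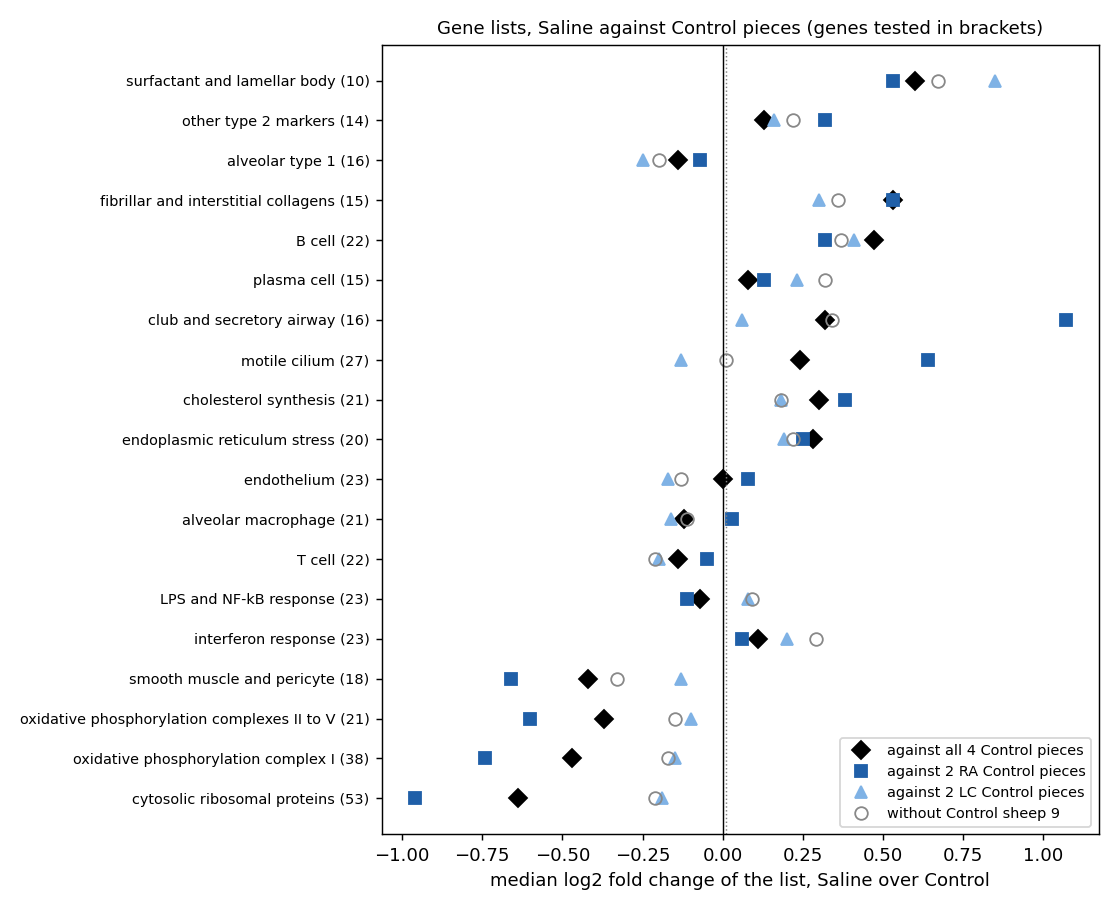
Median log2 fold change of 19 gene lists, Saline over Control, with the number of genes tested in brackets; diamonds use all 4 Control pieces, squares the 2 RA and triangles the 2 LC pieces, and open circles leave out Control sheep 9. The surfactant list keeps a median of 0.53 or more in all 4 settings, while the ribosomal list is at -0.64 with all Control pieces and -0.21 without sheep 9.

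The single genes with the smallest p were examined on each side. Of the 12 higher genes, 10 had groups that did not overlap, as did 2 of the 12 lower genes. These genes were ranked by the same contrast, so the counts are descriptions. All 12 higher genes were positive against the RA and against the LC Control pieces alone. Likewise, all 11 lower genes tested against RA pieces and all 12 tested against LC pieces were negative. The RA and LC pieces together are the Control group that ranked the genes, so this is no separate check.

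KCNJ5, an inward-rectifying potassium channel subunit, was measured at 0.98, 2.56, 1.13, 0.165, 1.7, 3.08 and 1.57 CPM in Saline sheep 1, 2, 8, 11, 14, 15 and 16. Control sheep 7 and 18 were at 0, sheep 9 at 0.118 and sheep 10 at 0.13 CPM. All Saline pieces lay above all Control pieces, sheep 11 only narrowly. The counts behind this were small, 303 over the Saline and 6 over the Control pieces. The log2 fold change was 4.72 (SE 1.15, edgeR adjusted p = 0.939), and DESeq2 called the gene (4.82, DESeq2 adjusted p = 0.0109). TMEM178A, a membrane protein of the endoplasmic reticulum that limits osteoclast formation in mice, ran from 1.2 to 3.15 CPM with a median of 1.69 in Saline pieces, against 0.266, 0.0591, 0.486 and 0.343 CPM in Control pieces. The groups were far apart, with Saline sheep 2 highest, and DESeq2 called it too (2.62, DESeq2 adjusted p = 0.0159).

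FCGR2B, the inhibitory receptor for IgG on B cells and myeloid cells, ran from 39.4 to 100 CPM with a median of 53.2 in Saline pieces, and stood at 32.5, 24.7, 31.5 and 32.4 CPM in Control pieces. All Saline pieces were above all Control pieces (0.99, SE 0.26), and the value without Saline sheep 14 was 0.83. Fc receptor genes resemble each other, so reads may be split among them. MKS1, a protein of the base of the primary cilium, averaged 39.1 ± 5.23 CPM in Saline and 20.9 ± 7.17 CPM in Control pieces (0.90, SE 0.24), with RA Control pieces at 16.9 and 13.2 CPM and LC pieces at 24.7 and 28.9 CPM.

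KCNN4, a calcium-activated potassium channel, averaged 17.2 ± 3.74 CPM in Saline and 9.17 ± 1.8 CPM in Control pieces (0.91, SE 0.25). TMEM158, a gene induced by RAS signalling, averaged 19.9 ± 7.2 CPM in Saline and 7.62 ± 3.5 CPM in Control pieces (1.39, SE 0.36), though the lowest Saline and highest Control pieces were at 11.4 and 11.3 CPM. PLCXD1 gave 1.11 (SE 0.29), and LAD1, an anchoring protein of epithelial basement membranes, had 1.65 (SE 0.47). LOC101104893, a protein-coding entry without a symbol, had 4.05 (SE 1.12) on 214 counts over the Saline and 9 over the Control pieces.

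TMEM229B averaged 92 ± 21 CPM in Saline and 52 ± 11.3 CPM in Control pieces (0.82, SE 0.24). FMN2, an actin-nucleating formin, had 76 counts over the Saline pieces and 0 over the Control pieces, at least 16.5-fold higher with 3 counts taken as the floor over all Control pieces. Saline sheep 8 was at 0 as well, so its groups overlapped.

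On the lower side DESeq2 called 4 genes. MMP12, the macrophage elastase that degrades elastin, was measured at 2.56, 0.689, 4.59, 1.56, 1.31, 2.68 and 1.71 CPM in Saline sheep 1, 2, 8, 11, 14, 15 and 16, and at 8.7, 1.89, 31.5 and 16.4 CPM in Control sheep 7, 9, 10 and 18. The Control pieces of sheep 7, 10 and 18 lay above every Saline piece, and that of sheep 9 lay among them. The log2 fold change was -2.75 (SE 0.56, edgeR adjusted p = 0.939), and DESeq2 called it (-2.77, DESeq2 adjusted p = 0.0109). It was -1.29 against the RA and -3.46 against the LC Control pieces. Of 21 alveolar macrophage genes tested, MMP12 among them, 8 were positive and 13 negative, with a median of -0.12 that ran from -0.29 without Control sheep 7 to 0.13 without Control sheep 18. GPNMB, a glycoprotein of lipid-laden macrophages, averaged 47 ± 31.1 CPM in Saline and 19 ± 10.3 CPM in Control pieces (1.31, SE 0.47).

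MCP-3, a chemokine that attracts monocytes, ran from 0 to 1.19 CPM with a median of 0.629 in Saline pieces, against 0.398, 24.2, 2.72 and 4.36 CPM in Control sheep 7, 9, 10 and 18. The groups overlapped at Control sheep 7, and sheep 9 was far above the rest. The log2 fold change was -3.76 (SE 0.89), and -2.11 without sheep 9, while DESeq2 gave -3.82 (DESeq2 adjusted p = 0.0274). LOC114110673, a protein-coding entry without a symbol, averaged 1.38 ± 1.27 CPM in Saline pieces, against 1.69, 73.4, 41.1 and 4.59 CPM in Control sheep 7, 9, 10 and 18 (DESeq2 -4.47, adjusted p = 0.0109). LOC114116193, a long noncoding RNA entry, had 23 counts over the Saline and 195 over the Control pieces, and its groups did not overlap (DESeq2 -4.05, adjusted p = 0.045).

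CYP1A1, an oxidase induced by the aryl hydrocarbon receptor, ran from 0.784 to 7.98 CPM with a median of 1.71 in Saline pieces, against 11.7, 8.75, 7.26 and 20 CPM in Control pieces. Saline sheep 1 alone reached into the Control range, and the other 6 Saline pieces were at 2.72 CPM or less. The log2 fold change was -2.19 (SE 0.53), with -1.96 against RA and -2.39 against LC Control pieces. Of the receptor's list 3 members were tested and all 3 were negative. The others were NQO1, a quinone reductase, with -0.70 (SE 0.35) and AHR, the receptor itself, with -0.14 (SE 0.25).

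DNAJB1, a co-chaperone of the heat shock response, averaged 50.1 ± 10.1 CPM in Saline and 108 ± 55.4 CPM in Control pieces (-1.11, SE 0.28), and 6 of 7 Saline pieces lay below every Control piece. Without Control sheep 10 the value was -0.72. HSPA6, an inducible heat shock protein, had -1.62 (SE 0.67), with Control sheep 10 at 141 CPM and Saline sheep 15 at 70.5 CPM, and was at -0.72 without sheep 10 and -2.47 without sheep 15. The heat shock list held 20 tested genes, 7 positive and 13 negative, with a median of -0.05 that ran from -0.14 without Control sheep 9 to 0.02 without Control sheep 10. S100A1, a calcium-binding protein of muscle, averaged 19.3 ± 9.39 CPM in Saline and 59.1 ± 44.9 CPM in Control pieces (-1.61, SE 0.40), and -0.94 without Control sheep 9.

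LOC101113032, a protein-coding entry, ran from 2.22 to 11.1 CPM with a median of 6.63 in Saline pieces, against 14.3, 25.2, 15.2 and 14.8 CPM in Control pieces, with no overlap (-1.49, SE 0.35). LOC114109014 had -1.65 (SE 0.38), the small nucleolar RNA entry LOC114116240 had -1.70 (SE 0.44) and the protein-coding LOC101110185 had -1.35 (SE 0.35). In 8 of the 12 lower genes Control sheep 9 was the highest of all 11 pieces. The ranking favoured genes with high Control pieces there, and the share over all genes was not counted. In none of the 12 higher genes was it so, which the ranking largely fixed, as 10 of them had groups that did not overlap.

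**Figure D3:**
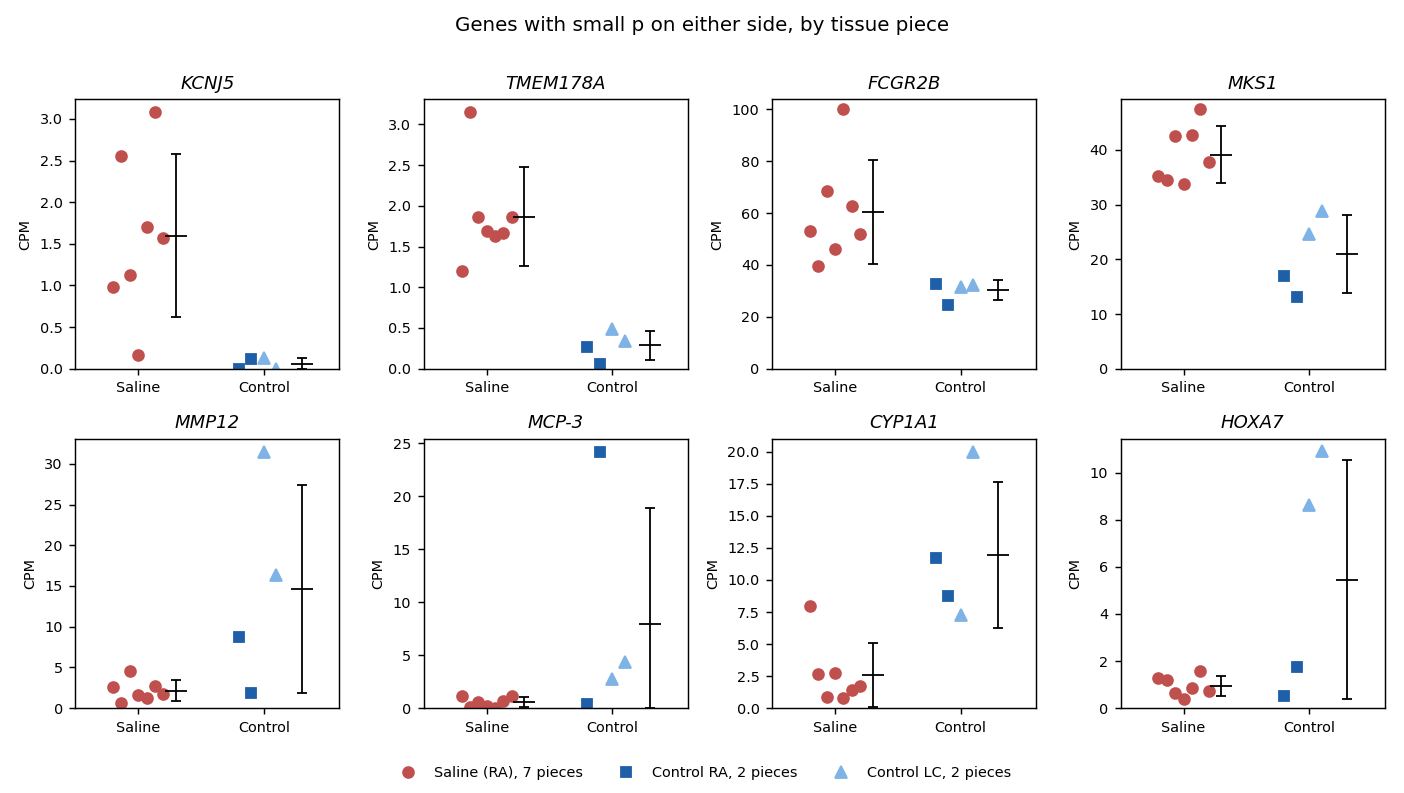
CPM of 8 of the 24 genes with the smallest p in each tissue piece, on axes that start at 0; circles are the 7 Saline pieces, squares the RA and triangles the LC Control pieces, and the bars are mean ± SD, drawn no lower than 0. The upper row shows 4 genes whose groups do not overlap, and in the lower row MCP-3 is highest in Control sheep 9 and HOXA7 in the LC pieces.

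The letter code of the Control pieces could be matched to that of the Saline pieces. Each code was held by only 2 Control sheep, so code and animal cannot be told apart. The RA pieces also include that of sheep 9, which stood apart. HOXA7, a homeobox factor that marks position along the body axis, was at 0.37 to 1.57 CPM in Saline pieces with a median of 0.85. The RA Control pieces of sheep 7 and 9 were at 0.531 and 1.77 CPM, and the LC pieces of sheep 10 and 18 at 8.62 and 10.9 CPM. The Saline and RA Control pieces overlapped and the LC pieces stood apart from both, so the log2 fold change of -2.52 (SE 0.64) became -0.25 (SE 0.89) against RA and -3.36 (SE 0.50) against LC Control pieces. HOXB6, of the same family, gave -0.99 against RA and -0.43 against LC Control pieces, and of 19 HOX genes tested 11 were positive, with a median of 0.10 that ran from -0.02 without Saline sheep 11 to 0.24 without Control sheep 10.

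Against the RA Control pieces alone edgeR called 0 of 19132 genes (0%), with a smallest adjusted p of 0.293. At an unadjusted p below 0.05 there were 639 higher and 1098 lower genes. DESeq2 called 60 genes (0.314%), 3 higher and 57 lower in Saline tissue, and limma voom called 0. The 3 higher genes were SLC34A2, the interferon-induced GTPase MX1 and JUND, a subunit of the transcription factor AP-1, named because DESeq2 called them there. In 56 of the 57 lower genes Control sheep 9, whose titles held a 4 after the code, was the highest of the 11 pieces. The calls were made against sheep 7 and 9 alone, so high values there favoured a call, and the count is a description. Of the 57, 12 were cytosolic ribosomal proteins, of 53 tested. A further 4 belonged to the respiratory chain, of 38 nuclear genes tested for complex I and 21 for complexes II to V. Over all genes DESeq2 called 0.314%. The edgeR test gave 1 call, LOC114110365, without Saline sheep 1. It gave 9 calls without Control sheep 7, when sheep 9 was the only RA Control piece left and was assumed to vary like the Saline pieces, and 0 without sheep 9 under the same assumption.

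**Figure D4:**
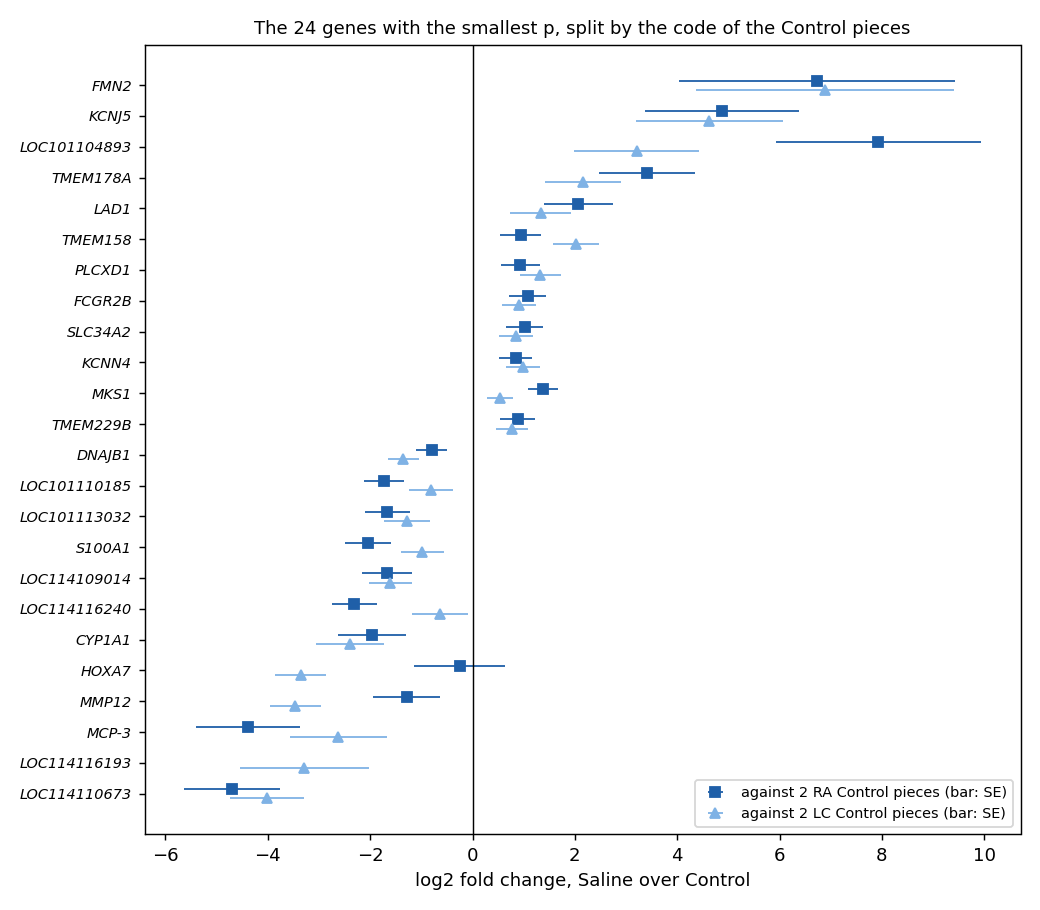
Log2 fold changes, Saline over Control, of the 24 genes with the smallest p, each against the 2 RA (squares) and the 2 LC (triangles) Control pieces, with bars of 1 SE. HOXA7 is at -0.25 against RA and -3.36 against LC pieces, LOC114116193 was not tested against RA pieces, and the values of FMN2 and LOC101104893, against Control pieces at or near 0, depend on the prior count of the fit.

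Among lists with 10 or more tested genes, the lowest medians were those of cytosolic ribosomal proteins and of respiratory complex I. Of 53 cytosolic ribosomal protein genes 52 had a negative fold change, with a median of -0.64, and 15 were at an unadjusted p below 0.05 on the lower side, where 3.25% of all genes were. Their summed level was 38713 to 105002 CPM in Saline pieces and 78506, 220598, 90475 and 54828 CPM in Control sheep 7, 9, 10 and 18. Control sheep 9 was thus far above all other pieces, and the median became -0.21 without it and -0.19 against LC pieces. RPS20 averaged 1960 ± 1041 CPM in Saline and 5027 ± 4364 CPM in Control pieces (-1.36, SE 0.49), and -0.56 without sheep 9. Ribosomal protein genes have many near-identical copies, so single values are uncertain.

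Complex I of the respiratory chain, which takes electrons from NADH, had 34 of 38 nuclear genes negative, with a median of -0.47. Complexes II to V had 20 of 21 negative, with a median of -0.37. That median was -0.15 without Control sheep 9, and -0.02 without sheep 9 and 14, with 13 of 21 negative. The summed level of the complex I genes was 2294 CPM in Saline sheep 14 and 3781 to 8091 CPM in the other Saline pieces, against 12410 CPM in Control sheep 9 and 4919 to 7044 CPM in the other Control pieces. The complex I median was -0.17 without sheep 9 and -0.02 without sheep 9 and 14. ATP5MF, an ATP synthase subunit, gave -1.20 (SE 0.47), and -0.41 without sheep 9. COX1, a cytochrome c oxidase subunit of the mitochondrial genome, averaged 1475 ± 640 CPM in Saline and 2549 ± 532 CPM in Control pieces (-0.79, SE 0.35), and -0.77 without sheep 9. Of 11 mitochondrial genome entries 10 were negative, with a median of -0.22, which was 0.02 without Control sheep 7, -0.10 without Saline sheep 14 and -0.37 without Control sheep 9.

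The positive fold changes of the collagens rested largely on 1 Saline piece. Of 15 fibrillar and interstitial collagens 12 had a positive fold change, with a median of 0.53, and 0.13 without Saline sheep 14. COL1A1, the main chain of type I collagen, was measured at 195, 258, 445, 194, 2002, 541 and 202 CPM in Saline sheep 1, 2, 8, 11, 14, 15 and 16, and at 277, 83.6, 248 and 237 CPM in Control sheep 7, 9, 10 and 18. Sheep 14 was highest by far, the groups overlapped, and the log2 fold change was 1.37 (SE 0.65) with and 0.53 without it. COL3A1, its partner in young fibres, gave 1.13 (SE 0.53), and 0.56 without sheep 14.

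ELN, which encodes elastin, ran from 31.7 to 286 CPM with a median of 66.8 in Saline pieces, against 31.8, 19.9, 38.2 and 100 CPM in Control pieces. Saline sheep 15 alone lay above all Control pieces (0.99, SE 0.56), and the value was 0.40 without it and 1.66 without Control sheep 18. The value was 1.88 against RA and 0.45 against LC Control pieces. MFAP2, a microfibril protein that elastin is laid on, averaged 27.4 ± 9.48 CPM in Saline and 17.4 ± 2.91 CPM in Control pieces (0.65, SE 0.28). The 18 elastic fibre genes were split 9 to 9, with a median of 0.01 that ran from -0.06 without Saline sheep 15 to 0.08 without Control sheep 10. SERPINA1, the gene of alpha-1 antitrypsin, a blood-borne inhibitor of elastase, was low throughout and gave -1.04 (SE 0.72), and -0.68 without Control sheep 18. MMP7, a protease of injured epithelium, averaged 114 ± 109 CPM in Saline and 28.5 ± 13.6 CPM in Control pieces (1.99, SE 0.64), and 6 of 7 Saline pieces lay above every Control piece. Saline sheep 14 was highest at 346 CPM, and the value was 1.40 without it.

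**Figure D5:**
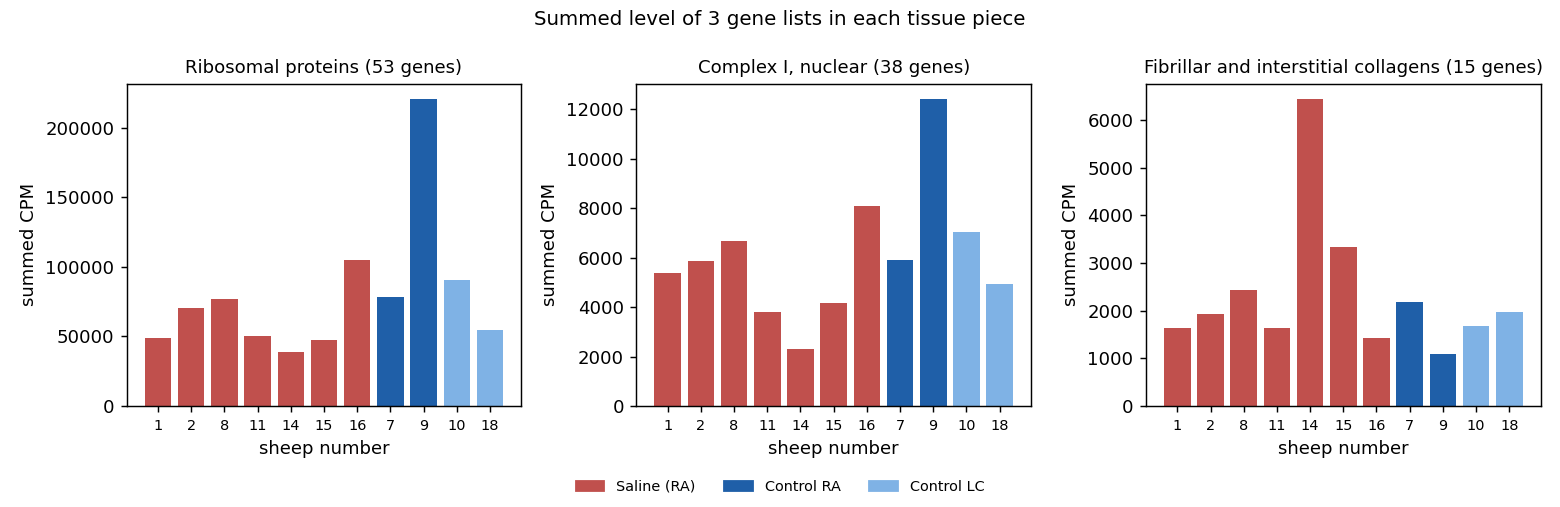
Summed CPM of 3 gene lists in each of the 11 pieces, with the sheep number on the x axis and bars that start at 0; Saline pieces are on the left, then RA and LC Control pieces. Control sheep 9 has the highest ribosomal sum, 220598 CPM, and the highest complex I sum, 12410 CPM, and Saline sheep 14 has the highest collagen sum, 6444 CPM.

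The medians of airway genes moved with the choice of Control pieces. The 27 motile cilium genes had a median of 0.24, with 0.64 against RA and -0.13 against LC Control pieces. It was 0.01 without Control sheep 9, an RA piece, with 14 positive and 13 negative, and 0.51 without Control sheep 10, an LC piece. The 16 club and secretory genes had a median of 0.32, with 1.07 against RA and 0.06 against LC pieces. It was -0.12 without Saline sheep 14 and 1.21 without Control sheep 10. PIGR, which carries antibodies across epithelium, averaged 2114 ± 1666 CPM in Saline and 1000 ± 405 CPM in Control pieces (1.08, SE 0.48), and 0.58 without sheep 14, which was at 5821 CPM. SCGB1A1, the secretoglobin of club cells, gave 0.10 (SE 0.41). The 18 smooth muscle and pericyte genes tested had a median of -0.42, with 15 negative. The sum over the 19 in the table was 1762 to 3654 CPM in Saline pieces and 5963, 2587, 1882 and 4093 CPM in Control sheep 7, 9, 10 and 18. The median was -0.10 without Control sheep 7, which had the highest sum, and -0.66 against RA and -0.13 against LC Control pieces.

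Of 23 genes of the LPS and NF-kB response 11 were positive and 12 negative, with a median of -0.07 that ran from -0.19 without Control sheep 7 to 0.09 without Control sheep 9. LCN2, an iron-sequestering antimicrobial protein, averaged 17.4 ± 13 CPM in Saline and 6.3 ± 5.51 CPM in Control pieces (1.45, SE 0.58), and 2.27 without Control sheep 18. IL1A, an alarm cytokine, gave 1.00 (SE 0.46). TNFAIP6, which binds hyaluronan in inflamed tissue, averaged 19.3 ± 10.9 CPM in Saline and 40.5 ± 16 CPM in Control pieces (-1.07, SE 0.35). The neutrophil chemokine CXCL8 gave -0.51 (SE 0.69), and 0.45 without Control sheep 9, which was at 31.1 CPM. Of 23 interferon response genes 18 were positive, with a median of 0.11. Without Control sheep 9 there were 21 positive and the median was 0.29, without sheep 9 and 14 all 23 were positive with a median of 0.40, and without Control sheep 10 the median was -0.02.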

How the data were processed

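The data are the raw counts deposited by the authors in 1 table, with a row per gene and a column per library and no normalization. Per the labels' protocols, total RNA was primed at the poly-A tail with an index, template switching served to amplify pools of samples, and tagmentation and PCR added the other adapter. The submitters' processing notes list, without saying what each did, STAR 2.7.10b, Trimmomatic 0.39, FastQC 0.11.9, edgeR 3.40.2, featureCounts and Subread 1.6.3. The sources used here do not give the genome build, whether strand was used or how molecular identifiers were treated, so near-identical, overlapping and antisense genes may share reads. Of 30186 rows 2 held no values and were not used. Of the 30184 gene IDs, 25454 (84.3%) matched a RefSeq gene table of ARS-UI_Ramb_v3.0, used for names only.

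Libraries held 2988985 to 13690740 counts in Saline and 6286591 to 16215732 counts in Control pieces. Libraries of the same piece differed beyond counting noise (index of dispersion 8.61 to 18.5, with 1 expected, over genes of 50 or more counts). Counts were summed per piece, and the piece, 1 per sheep, was the unit of every test.

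Saline was compared with Control in edgeR 4.0.16 under R 4.3.3, by its quasi-likelihood test (robust fit, TMM scaling, filterByExpr at a count of 10 and a sum of 15, Benjamini-Hochberg adjustment at 0.05), and again with the 2 RA Control pieces. CPM use TMM-scaled library sizes. The tests were also tried on simulated counts in which no piece stood apart, so that trial does not cover pieces such as those of sheep 9 and 14. Alternatives were DESeq2 1.42.0, voom in limma 3.58.1, RLE and upper-quartile scaling, other low-count filters, RA or LC Control pieces alone, all 18 pieces in one fit, single libraries and pieces left out in turn. A fit without both sheep 9 and 14, and the alternatives of the RA comparison, were added after the data were seen. The members and the 47 gene lists (885 of 986 genes in the table) were chosen with earlier results of these data known. The text names the 12 genes with the smallest p on each side, all DESeq2 calls, up to 4 members per list with the smallest p, and 10 genes of the study's subject. Lists are described by counts and medians, with no set test.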

Additional observations from a re-analysis of the deposited data

Results flagged for a closer look

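Among 77 genes in the 2 groups, 27 values lay far from the other pieces of their group by Dixon's criterion. Chance alone meets it in about 1 in 20 groups of normally distributed values. The CPM were not log-transformed, most of the flagged values were on the high side, and many of the genes were named for a small p. The 27 values therefore cannot be set against that rate. Saline sheep 14 was the highest in 10 of the 27. It had 57.1 CPM of PLCXD1, 337 of ABCA3, 469 of LRRK2, 69.7 of ACSS2 and 5821 of PIGR. It also had 2002 CPM of COL1A1, 1785 of COL3A1, 346 of MMP7, 30.2 of CXCL8 and 43 of TNFAIP6. Control sheep 9 was the highest in 6, with 25.2 CPM of LOC101113032, 24.2 of MCP-3, 32.1 of ACAT2, 21.4 of POU2AF1, 49.9 of CXCL13 and 32.8 of GTF2A2, and the lowest in FCGR2B with 24.7 CPM.

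The other 10 values were spread over the animals. In Saline tissue they were TMEM178A at 3.15 CPM in sheep 2, CYP1A1 at 7.98 in sheep 1, AHR at 55.9 in sheep 11, and ELN at 286 and HSPA6 at 70.5 in sheep 15. The B cell genes VPREB3, at 90.6 CPM, and BLNK, at 22.2 CPM, were highest in Saline sheep 16. In Control tissue they were HSPA6 at 141 CPM and PLCXD1 at 9.69 CPM, the lowest, in sheep 10, and ACKR1 at 8.15 CPM in sheep 18.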

How the results depend on the processing

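Of 77 named genes, 72 kept the sign of their fold change in all 24 alternatives in which they were tested. The alternatives refit the same pieces or parts of them, and many of these genes were named for a small p in this comparison. A kept sign was therefore largely fixed in advance and is no separate support. DESeq2 called 6 genes between Saline and Control tissue, and the fit without sheep 9 and 14 called 1, GTF2A2, a subunit of a general transcription factor named for that call (log2 fold change 2.54, edgeR adjusted p = 0.0289), where the full comparison gave 0. Genes at an unadjusted p below 0.05 numbered 539 higher and 1303 lower with no low-count filter, 1842 in all, where 1209 are expected by chance. Against RA Control pieces they numbered 639 and 1098, 1737 in all with 957 expected. Against LC Control pieces they numbered 199 and 147, 346 in all with 976 expected. There were 226 lower without sheep 9 and 14. With a piece left out the higher count ran from 207 to 547 and the lower count from 217 to 1039. Against RA Control pieces DESeq2 called 60 genes, and edgeR 0 to 9 with a piece left out. Beside 66.1% on the lower side, RLE scaling gave 69.9% and upper-quartile scaling 65.1%.

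SCGB1A1 turned to -0.20 against LC pieces and -0.00 in library 2 alone, and ran from -0.18 to 0.47 with a piece left out. CXCL8 turned to 0.14 against LC pieces and ran from -1.24 to 0.45. GZMA turned to 0.03 against LC pieces, and AHR to 0.01 against RA pieces and 0.06 in library 1 alone. GTF2A2, at 0.00 over all pieces, gave -0.05 by DESeq2, -0.03 and -0.01 by RLE and upper-quartile scaling, -0.02 with at least 1 CPM in 4 pieces, -0.87 against RA pieces, -0.21 in library 1 alone and -0.36 to 2.39 with a piece left out. The cause was not tested. No paired analysis was possible because the Saline and Control pieces came from different sheep. With 4 Control pieces, 2 per code, and each group holding a piece that stood apart, a log2 difference within ± 0.68 could not be told from 0 for a typical gene, before any adjustment.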

Other observations

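B cell genes leaned to the higher side in Saline tissue. Of 22 tested 16 had a positive log2 fold change, with a median of 0.47 over Control tissue, 0.32 against RA and 0.41 against LC Control pieces, and 0.14 without Saline sheep 16. Their summed level was 460 CPM in Saline sheep 16 and 224 to 301 CPM in the other Saline pieces, against 177 to 333 CPM in Control pieces. CD22, a sialic acid receptor that restrains B cell activation, averaged 10.5 ± 5.14 CPM (SD, n = 7) in Saline and 5.37 ± 2.01 CPM (SD, n = 4) in Control pieces (0.96, SE 0.38). POU2AF1, a coactivator of antibody genes, gave 0.71 (SE 0.36), and 1.19 without Control sheep 9. Of 15 plasma cell genes 11 were positive, with a median of 0.08, which was 0.32 without Control sheep 9, with 12 positive, and 0.01 without Control sheep 7. MZB1, an antibody-folding chaperone, gave 1.06 (SE 0.46), with Saline sheep 8 and 14 at 113 and 127 CPM and the Control pieces at 20.4 to 32.9 CPM. DERL3, of protein disposal in the endoplasmic reticulum, gave 1.42 (SE 0.53) and IRF4, a plasma cell transcription factor, 0.85 (SE 0.38), while SEC11C, a signal peptidase subunit, gave -0.76 (SE 0.32). CXCL13, which draws B cells into follicles, gave -1.51 (SE 0.47) and -0.66 without Control sheep 9. No gene here passed the edgeR threshold.

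Of 22 T cell genes 16 were negative, with a median of -0.14 that ran from -0.24 without Control sheep 10 to 0.05 without Control sheep 18. CD3G, a chain of the T cell receptor complex, gave -0.93 (SE 0.39), and -0.51 without Control sheep 9, which was at 321 CPM. GZMA, a granule protease of killer cells, gave -0.98 (SE 0.43), and -0.24 without it. The 23 endothelial genes had a median of -0.00, with -0.13 without Control sheep 9 and 0.17 without Control sheep 18. ACKR1, a chemokine-binding receptor of venules, averaged 12.2 ± 5.32 CPM in Saline and 4.87 ± 2.21 CPM in Control pieces (1.32, SE 0.40). ENPP3, an ectoenzyme of mast cells and basophils that epithelium also expresses, averaged 25.6 ± 18.9 CPM in Saline and 9.74 ± 1.84 CPM in Control pieces (1.39, SE 0.47). The mast cell and basophil list of 10 genes had 4 positive and a median of -0.13, with -0.63 against RA and 0.89 against LC Control pieces, and without Control sheep 9 it had 9 positive and a median of 0.49.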
